A study of Mus musculus with 12 samples.

Results

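Exosome miRNAs of hepatocytes from mice on HFD, a high-fat diet, for 16 weeks were compared with those from lean mice. All libraries that the labels place in these groups were taken, 4 at 16 weeks of HFD and 4 lean, which is 8 of the 12 libraries of the study; the other 4 are from 4 weeks of HFD and enter only 1 alternative fit. The 16-week libraries carry HFD as their treatment, and the lean libraries are labelled as controls, with NCD in their descriptions. Exosomes are small vesicles that cells release, and these came from primary hepatocytes at passage 0 in Williams' E medium with serum and glutamax, in both groups alike. Strain, sex and age of the mice are not given in the sources used here, nor whether the libraries of a group come from separate mice, so p-values measure only the spread between these samples. All 1965 miRNA names of the deposited table were considered. Of these, 555 were above 0 in at least 1 of the 8 libraries and 93 in all 8.

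A miRNA is cut from a hairpin in a longer transcript, and either arm of the hairpin (5p or 3p) can be loaded into an Argonaute protein and pair with messenger RNAs through its seed, the bases near its 5′ end. Liver cells pack miRNAs into exosomes, which macrophages, adipocytes and other hepatocytes can take up. In the liver, miR-122 and miR-192 are known as hepatocyte miRNAs, miR-802 as a miRNA raised in obesity, and miR-146a as a brake on NF-κB signalling that is itself induced by it.

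The sequences below belong to the miRNAs on which the comparison turns. They are the RefSeq mature sequences of build GRCm38.p6, 5′ to 3′, with the seed (bases 2 to 8) in capitals. Of the 120 miRNAs tested, 106 were matched to such a sequence. Among the miRNAs called higher at 16 weeks, these do not share a seed with another one:
miR-146a-5p: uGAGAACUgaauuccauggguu
miR-24-2-5p: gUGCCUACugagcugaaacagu
miR-455-3p: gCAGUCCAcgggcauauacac
miR-511-3p: aAUGUGUAgcaaaagacaggau
The miRNAs miR-192-5p and miR-215-5p share the seed UGACCUA and both were called higher:
miR-192-5p: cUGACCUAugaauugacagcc
miR-215-5p: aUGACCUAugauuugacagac
The miRNAs miR-322-5p and miR-195a-5p share the seed AGCAGCA of the miR-15/16 family. The seed of miR-503-5p, from the hairpin next to that of miR-322, differs from it in its last base, and all 3 were called higher:
miR-322-5p: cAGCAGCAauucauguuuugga
miR-195a-5p: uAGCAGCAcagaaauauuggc
miR-503-5p: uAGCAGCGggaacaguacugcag
Of the miRNAs called lower, the first 3 below come from the Dlk1-Dio3 cluster and the others from other loci. None of these seeds is shared by another of the 106 matched miRNAs:
miR-541-5p: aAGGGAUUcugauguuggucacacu
miR-376b-5p: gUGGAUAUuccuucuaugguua
miR-337-5p: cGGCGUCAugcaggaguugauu
miR-1843a-3p: uCUGAUCGuucaccuccauaca
miR-191-3p: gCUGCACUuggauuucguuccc
miR-674-3p: cACAGCUCccaucucagaacaa

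The values are CPM, the reads of a miRNA scaled to a common library total, and the libraries were shallow. The 16-week libraries held 20538 to 37596 reads and the lean ones 13748 to 30430, so that 1 read was worth 26.6 to 48.7 CPM at 16 weeks and 32.9 to 72.7 CPM in lean. Where all libraries of a group lack a read of a miRNA, its level could still be up to 27.1 CPM at 16 weeks and 36.2 CPM in lean (3 reads over the group, for counting error only). Each library had reads of 259.75 ± 15.5 miRNAs at 16 weeks and 248 ± 32.0 in lean (SD, n = 4 each). Lean replicate 4 stood apart from its group. On log2 values of the tested miRNAs its mean Pearson r was 0.890 with the 16-week libraries and 0.866 with the other lean ones, while the other 3 lean libraries had means of 0.767 to 0.847 with the 16-week libraries and 0.895 to 0.916 within their own group. Many miRNAs that nearly all cells hold, among them miR-16-5p, miR-24-3p, miR-191-5p, let-7f-5p, let-7g-5p and the miR-29 family, are listed at 0 in all 8 libraries. A marker listed at 0 may thus reflect the table and not the cells, and its absence from the cells cannot be read from it. Because of lean replicate 4, counts below are also given without that library. It was set apart on the values of the tested miRNAs themselves, by its likeness to the 16-week libraries. Leaving it out therefore favours wider differences and more calls, and those counts are no independent test. In 7 miRNAs the 16-week and lean values look exchanged, and these were left out of the fit and are described apart.

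Of 120 miRNAs tested, 13 (10.8%) were higher and 15 (12.5%) lower at 16 weeks than in lean (limma on log2(CPM + 50), adjusted p under 0.05). Before adjustment, 46 were under 0.05. The median log2 fold change of all tested miRNAs was -0.07; CPM sets all libraries to the same total, so this median says nothing about the total amount of miRNA. A count test on reads recovered from the CPM steps (edgeR) called 12 (10%) higher and 19 (15.8%) lower, and both tools called 10 miRNAs higher and 14 lower. The 16-week libraries all lay above the lean ones in 10 tested miRNAs and all below them in 16. Without lean replicate 4, limma called 20 (16.7%) higher and 21 (17.5%) lower, among them 12 of the 13 and 14 of the 15, and edgeR called 19 (15.8%) higher and 22 (18.3%) lower.

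**Figure D1:**
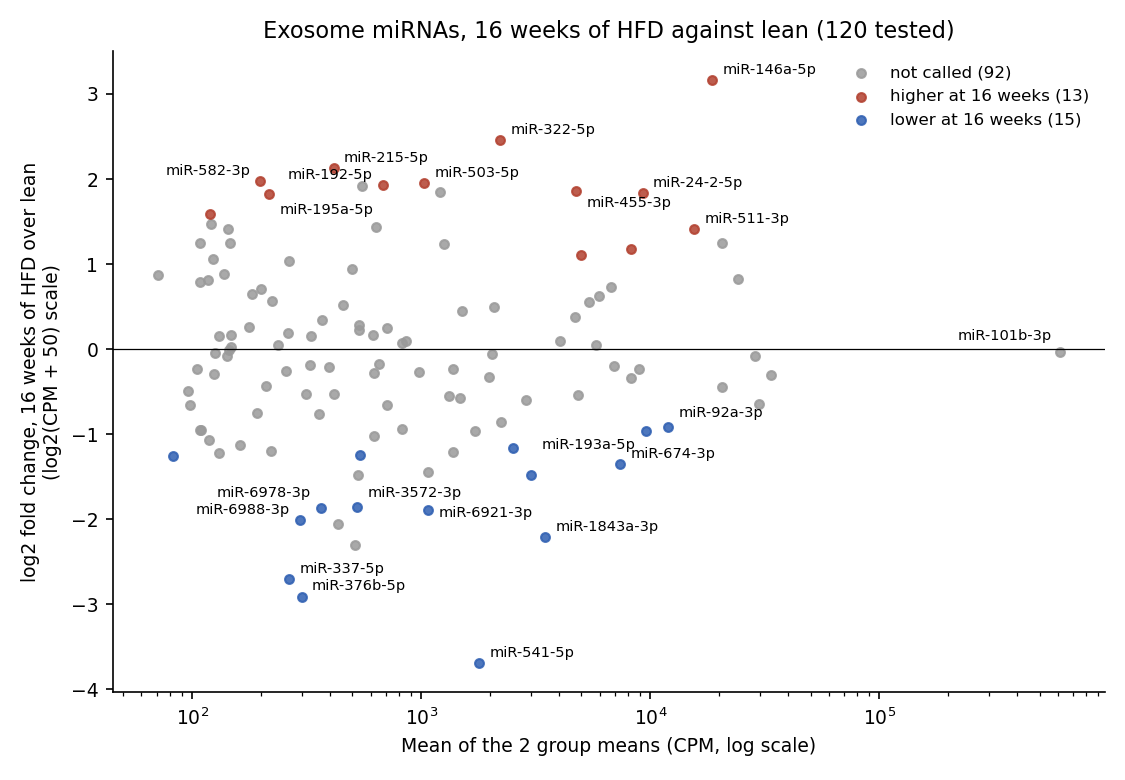
Mean level (x axis, CPM, log scale, mean of both group means) against the log2 fold change of 16 weeks of HFD over lean on the log2(CPM + 50) scale (y axis) for the 120 tested miRNAs, with those called higher in red and lower in blue. The largest differences, those of miR-146a-5p at 3.17 and miR-541-5p at -3.69, lie at middle to high levels, and miR-101b-3p, far to the right, lies close to 0.

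Among miRNAs linked to immune cells, miR-146a-5p and miR-511-3p were called higher at 16 weeks. miR-146a-5p, which targets the NF-κB pathway adaptors Traf6 and Irak1, had 22955, 25557, 43294 and 40364 CPM at 16 weeks, against 2837, 3253, 1797 and 8997 CPM in lean. The groups did not overlap, and its highest lean value belonged to replicate 4. The log2 fold change was 3.17 (SE 0.43, limma adjusted p = 0.000586), and 3.61 without lean replicate 4. Its mature sequence lies at chr11:43374435-43374456 on the minus strand, in no gene on its strand other than its own. miR-511-3p, encoded in an intron of Mrc1, the macrophage mannose receptor gene, had 21013, 15375, 21989 and 26488 CPM at 16 weeks, against 5237, 9366, 3635 and 20721 CPM in lean. Here lean replicate 4 lay inside the 16-week range and the other 3 lean libraries below it. The log2 fold change was 1.41 (SE 0.45, limma adjusted p = 0.0419), and the call was not made by edgeR (1.22, adjusted p = 0.0526).

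Of 15 leukocyte and macrophage miRNA names in the table, 5 were above 0, and 1 of these, miR-155-5p, is among the exchanged-looking miRNAs, so that its direction depends on the reading given with them. The other 4 were tested and 2 called, both higher, beside 10.8% higher over all tested miRNAs, with a median log2 fold change of 0.56 beside -0.07 over all tested miRNAs. The other arms, miR-146a-3p and miR-511-5p, were not called (-0.30 and -0.57; limma adjusted p = 0.763 and 0.408). Both arms of miR-223, miR-142a, miR-150 and miR-342, as well as miR-142b and miR-155-3p, were listed at 0 in all 8 libraries. The summed level of the list without miR-155-5p ranged over 41684 to 67679 CPM at 16 weeks and 6059 to 33058 CPM in lean, with the highest lean value again in replicate 4. The part that leukocytes among the cells have in these levels was not tested. In these libraries, more vesicles of a cell type and more miRNA per vesicle cannot be told apart.

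Of the hepatocyte-enriched miRNAs, 2 of 3 tested were called higher, beside 10.8% higher over all tested miRNAs, and the third, miR-101b-3p, was not called. miR-192-5p, a hepatocyte and gut epithelium miRNA known to be induced by p53, had 612, 1743, 1583 and 536 CPM at 16 weeks, against 145, 230.0, 167 and 409 CPM in lean. The 4 values at 16 weeks were above all lean ones (log2 fold change 1.92, SE 0.49, limma adjusted p = 0.0175). miR-215-5p, which carries the same seed, had 1835, 444, 342 and 243 CPM at 16 weeks, against 72.7, 98.6, 0 and 273 CPM in lean. Its mean at 16 weeks rests in large part on replicate 1, and the lowest 16-week library lay under lean replicate 4 (log2 fold change 2.13, SE 0.68, limma adjusted p = 0.0419; 1.55 and adjusted p = 0.0973 without 16-week replicate 1). The 2 miRNAs come from different chromosomes, 19 and 1. miR-802-3p, an arm of the obesity-linked hepatic miR-802 hairpin, had 17901, 10284, 6246 and 11539.6 CPM at 16 weeks, against 5019, 7164, 4555 and 3067 CPM in lean. The groups overlapped in 1 library each, 16-week replicate 3 and lean replicate 2 (log2 fold change 1.17, SE 0.36, limma adjusted p = 0.0419). Of the defining hepatocyte miRNA, miR-122-5p, the table gave 0, 1, 1 and 0 reads at 16 weeks, against 0, 0, 1 and 0 reads in lean, and miR-148a, miR-22 and miR-101a were listed at 0 in all 8 libraries.

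The miRNAs that carry the AGCAGC core of the miR-15/16 family, regulators of cyclins and other cell cycle genes, were higher as well. miR-322-5p, the mouse counterpart of human miR-424, had 3351, 1743, 3722 and 4820.3 CPM at 16 weeks, against 291, 953, 83.6 and 2658 CPM in lean. Only lean replicate 4 reached into the 16-week range (log2 fold change 2.46, SE 0.76, limma adjusted p = 0.0419; edgeR 1.89, adjusted p = 0.0526). miR-195a-5p had 186, 308, 385 and 536 CPM at 16 weeks, against 0, 65.7, 41.8 and 204 CPM in lean, a log2 fold change of 1.83 (limma adjusted p = 0.0402). miR-503-5p had 1357, 1128, 1839.6 and 2239.8 CPM at 16 weeks, against 291, 263, 292 and 818 CPM in lean, with no overlap (1.95, SE 0.42, limma adjusted p = 0.00929). Of 17 names of this family in the table, arms without the family seed included, 8 were tested, 4 were called higher and 0 lower, beside 10.8% higher and 12.5% lower over all tested miRNAs. Their median log2 fold change was 1.17, beside -0.07 over all tested. Of the 4 called, miR-322-5p, miR-322-3p and miR-503-5p are the same miRNAs counted again below for the chromosome X cluster. miR-322-3p does not carry the family seed. The arms for which the family is named, miR-16-5p, miR-15a-5p, miR-15b-5p and miR-497a-5p, were listed at 0 in all 8 libraries.

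miR-322 and miR-503 share 1 stretch of chromosome X with miR-351, miR-450a and miR-450b (mature miR-351-5p at chrX:53053315-53053338 and miR-322-5p at chrX:53054306-53054327, minus strand), and this cluster is known to be transcribed as 1 unit. Of its 9 tested members, 9 had a positive log2 fold change, beside 56 of all 120, with a median of 1.25. Among them miR-351-3p was close to 0 (0.16, and -0.0075 with edgeR), with means of 130 CPM at 16 weeks and 133 CPM in lean. The test was passed by 3, beside 10.8% higher over all tested miRNAs, miR-503-5p and both arms of miR-322, of which the 3p arm, miR-322-3p, had 1.10 (limma adjusted p = 0.0419). The most abundant member, miR-351-5p, had 16305, 17220.2, 30674 and 48690.2 CPM at 16 weeks, against 8947, 8676, 5766 and 28696 CPM in lean. The 16-week values exceeded those of lean replicates 1 to 3, but lean replicate 4 was higher than 2 of them, and the difference missed the threshold (1.25, SE 0.48, limma adjusted p = 0.0719). Without lean replicate 4, which these same values had set apart, 7 of the 9 were called higher. The calls that this adds are no independent test. The 4 added then were miR-351-5p (1.73, adjusted p = 0.00212), miR-503-3p (1.77, adjusted p = 0.0114), miR-450b-3p (1.85, adjusted p = 0.00649) and miR-450a-2-3p (1.63, adjusted p = 0.0349; all limma). miR-351-3p and miR-450b-5p were not called with or without that library.

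The remaining miRNAs called higher belong to no common list. miR-24-2-5p, the minor arm of a hairpin in the miR-23a, miR-27a and miR-24-2 cluster, had 11809.8, 11754, 16385 and 16019 CPM at 16 weeks, against 2109, 4404, 2632 and 8861 CPM in lean (log2 fold change 1.83, SE 0.40, limma adjusted p = 0.00929). miR-455-3p, encoded in an intron of the collagen gene Col27a1, had 4522, 11480.1, 8385 and 5209.9 CPM at 16 weeks, against 1964, 1413, 1170.0 and 3681 CPM in lean (1.86, SE 0.41, limma adjusted p = 0.00929). In both the groups did not overlap, and lean replicate 4 was the highest lean library. At lower levels, miR-582-3p, from an intron of the phosphodiesterase gene Pde4d, averaged 344 ± 132 CPM at 16 weeks and 53.3 ± 42.4 CPM in lean (1.98, limma adjusted p = 0.0149). It had 1, 3, 1 and 0 reads in lean and passed the filter of 100 CPM through the 16-week libraries alone. miR-30b-3p averaged 197 ± 53.9 CPM at 16 weeks and 43.3 ± 62 CPM in lean (SD, n = 4 each; 1.59, limma adjusted p = 0.0419), with 0 in 2 lean libraries, and edgeR did not call it (adjusted p = 0.0995). For miR-30b-3p, as for miR-195a-5p and miR-215-5p, all 16-week libraries reached 100 CPM and most lean libraries did not. Their calls thus rest in part on the filter.

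**Figure D2:**
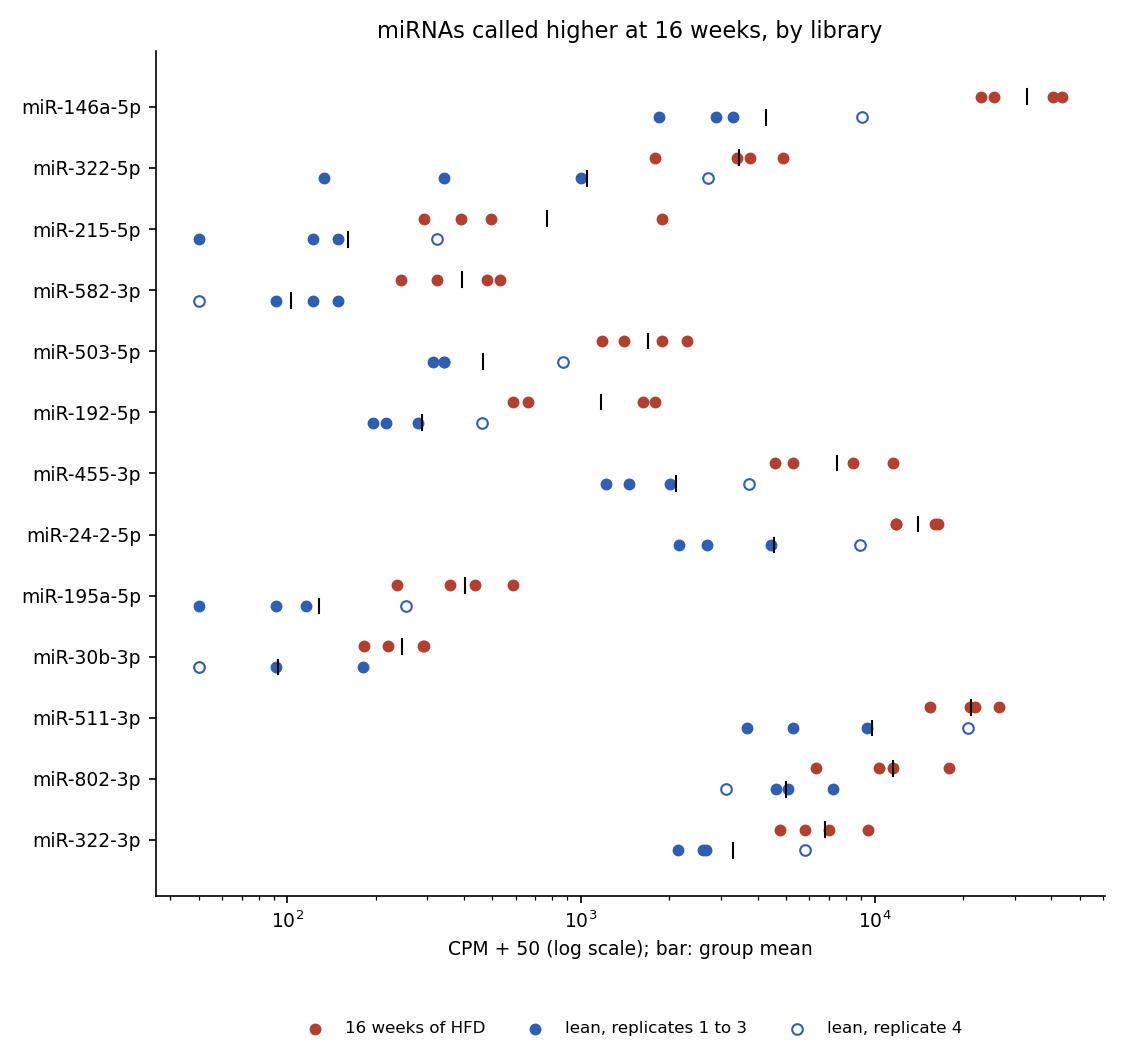
Level in each library (x axis, CPM + 50, log scale) of the 13 miRNAs called higher, with 16 weeks of HFD in red above lean in blue, lean replicate 4 as an open circle and each group mean as a bar. The 16-week points lie to the right of lean replicates 1 to 3 in 12 of the 13 rows, and lean replicate 4 is the lean library nearest to them in 10 of the 13.

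Leaving out 1 library ended 9 of the 13 calls, while miR-146a-5p, miR-24-2-5p, miR-455-3p and miR-503-5p kept theirs without any of the 8. For miR-582-3p the call was lost without 16-week replicate 3 (limma adjusted p = 0.0518), and for miR-192-5p without 16-week replicate 2 or 3 or lean replicate 1 (0.0617, 0.0761 and 0.0511). miR-802-3p lost its call without 16-week replicate 1, 2 or 4 or lean replicate 1 or 3 (0.0592 to 0.0932), miR-195a-5p without 16-week replicate 2, 3 or 4 or lean replicate 1, 2 or 3 (0.0592 to 0.111), and miR-215-5p without 16-week or lean replicate 1, 2 or 3 (0.0712 to 0.115). miR-322-5p, miR-322-3p and miR-511-3p lost theirs without any library other than lean replicate 4 (0.0529 to 0.123), and miR-30b-3p without any other than lean replicate 2 (0.0591 to 0.115).

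The many miRNA hairpins of the imprinted Dlk1-Dio3 region of chromosome 12 are transcribed from the maternal allele with the noncoding RNAs Meg3, Rian and Mirg. Its members outside the 4 with exchanged-looking values held few reads at 16 weeks. Of these members, 4 were tested and 3 were called lower, beside 12.5% lower over all tested miRNAs. miR-541-5p, in an intron of Mirg at chr12:109742422-109742446 (plus strand), had 79.8, 205, 428 and 243 CPM at 16 weeks, against 3200.5, 3221, 3301 and 3613 CPM in lean. The lean values were close together, replicate 4 included, and all lay far above the highest value at 16 weeks (log2 fold change -3.69, SE 0.41, limma adjusted p = 0.000141). miR-376b-5p had 0, 68.3, 42.8 and 0 CPM at 16 weeks, against 1164, 493, 292 and 341 CPM in lean (-2.91, SE 0.52, limma adjusted p = 0.00382). miR-337-5p had 79.8, 0, 85.6 and 0 CPM at 16 weeks, against 364, 460.1, 585 and 545 CPM in lean (-2.71, SE 0.48, limma adjusted p = 0.00382). In both the groups did not overlap, and at 16 weeks miR-376b-5p had at most 2 reads and miR-337-5p at most 3 reads in any library. Both reached the filter of 100 CPM through the lean libraries alone, so the share of tested members called lower rests in part on the filter. The fourth tested member, miR-544-5p, averaged 259 ± 149.8 CPM at 16 weeks and 139.6 ± 98.3 CPM in lean (SD, n = 4 each) and was not called (0.71, limma adjusted p = 0.344).

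Most of this cluster was too sparse to be tested, and its members were counted as well. Of 107 names on the list, 31 were above 0 in the 8 libraries, and 4 of these are among the exchanged-looking miRNAs. Of the other 27, 23 had a lower mean at 16 weeks and 17 had no read there, against 3 with no read in lean. Over all 548 miRNAs above 0, the 7 left out, 276 (50.4%) had a lower mean at 16 weeks and 110 (20.1%) no read there. The 27 members had 67 reads in all at 16 weeks and 518 in lean. Their summed level was 426, 444, 1069.5 and 633 CPM at 16 weeks, against 7637, 6014, 6017 and 5862 CPM in lean, with lean replicate 4 close to the other lean libraries. Without miR-541-5p the sums averaged 404 ± 171 CPM at 16 weeks and 3049 ± 956 CPM in lean (SD, n = 4 each). These sums leave out the 4 exchanged-looking members. As deposited, miR-434-3p and miR-300-3p averaged 4228 and 2440.5 CPM at 16 weeks, against 90.8 and 84.2 CPM in lean. The direction of the total over the whole cluster therefore depends on how the exchanged-looking values are read.

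Of all miRNAs outside the 7, 5 were at 0 in all 16-week libraries and present in all 4 lean ones, and 0 showed the opposite. All 5 are Dlk1-Dio3 members with few reads. miR-543-5p had 3, 3, 6 and 2 reads in the lean libraries, miR-667-3p had 4, 2, 6 and 1, and miR-329-5p had 5, 2, 2 and 2. Set as the 16-week floor of 27.1 CPM, over the group, against the lean means, they were at least 6.50-fold, 6.24-fold and 5.99-fold lower at 16 weeks. miR-679-5p, with a lean mean of 124 CPM, was at least 4.57-fold lower, and miR-376c-3p, with 70.3 CPM, at least 2.60-fold lower. These bounds treat the lean mean as exact.

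**Figure D3:**
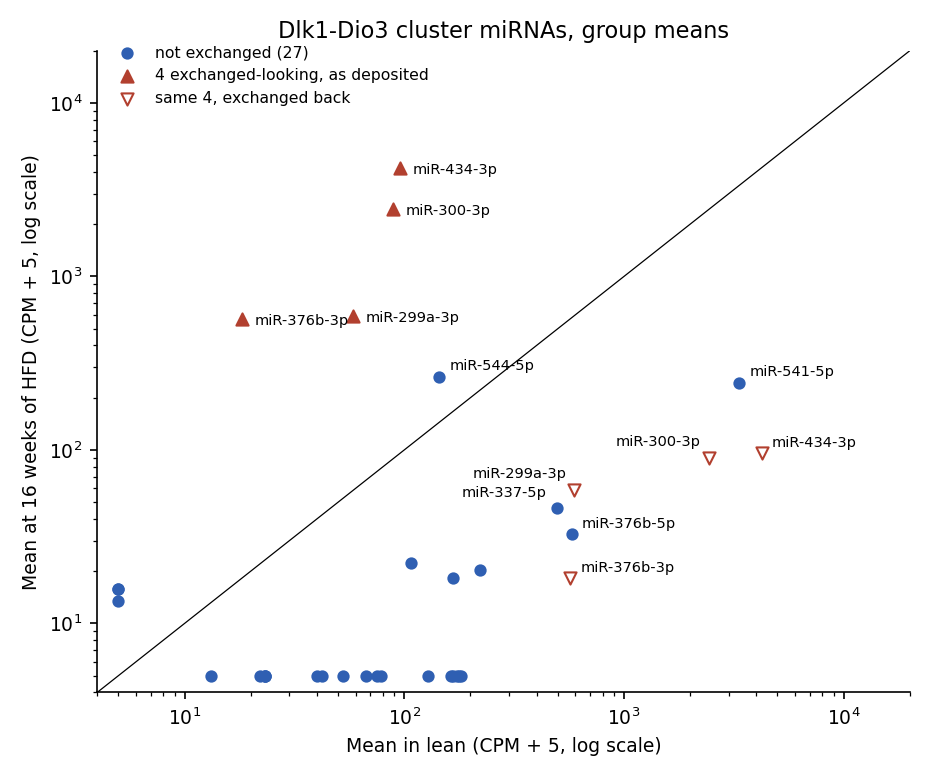
Mean at 16 weeks of HFD (y axis) against mean in lean (x axis), both CPM + 5 on log scales, for the 31 Dlk1-Dio3 miRNAs above 0, with the line of equal means. Of the 27 miRNAs without exchanged-looking values (filled circles) 23 lie below the line, and the other 4 lie above it as deposited (filled triangles) and below it once exchanged back (open triangles).

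The 7 miRNAs with exchanged-looking values are 4 from the Dlk1-Dio3 cluster, miR-434-3p, miR-300-3p, miR-376b-3p and miR-299a-3p, and 3 from other loci, miR-486a-5p, miR-346-5p and miR-155-5p. As deposited, 0 of their 46 values above 0 in the 8 columns were whole reads of their own library, and 44 became whole, within a relative tolerance of 1e-06, when 16-week and lean columns of equal number traded values. Of the other miRNAs, 1985 of 1985 values gave whole reads in their own column and 0 did so in the traded one. The 2 values that stayed uneven are those of miR-155-5p for 16-week replicates 2 and 3, at 47.464 and 24.5 reads. These columns, once exchanged, fall short of the sum of the complete columns by 2000 and 4000 CPM, and with that shortfall added the 2 values come to 106 and 118 whole reads. How the values came to be exchanged was not tested.

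The reading decides the direction for these miRNAs. For the 4 Dlk1-Dio3 members, miR-434-3p averaged 4228 ± 1588 CPM at 16 weeks and 90.8 ± 82.7 CPM in lean as deposited, and the reverse, 90.8 and 4228 CPM, when exchanged back, a log2 fold change of 5.05 or -5.05 (limma adjusted p = 4.17e-05 either way). Likewise miR-300-3p stood at 4.18 or -4.18, miR-376b-3p at 3.19 or -3.19 and miR-299a-3p at 2.59 or -2.59. Their other arms, whose values were whole reads as deposited, can be set beside them. miR-376b-5p averaged 27.8 CPM at 16 weeks and 573 CPM in lean, and miR-434-5p had 1, 1, 0 and 0 reads at 16 weeks, against 0, 10, 8 and 3 reads in lean. miR-300-5p and miR-299a-5p were listed at 0 in all 8 libraries. miR-155-5p, an inflammation-induced miRNA of leukocytes, averaged 389 ± 399 CPM at 16 weeks and 2256 ± 2189 CPM in lean as deposited (-2.69, limma adjusted p = 0.0354), and exchanged back it was higher by the same amount. That exchanged-back fit holds the uneven values of 16-week replicates 2 and 3, at 1622 and 1048 CPM. With the shortfall added these come to 3622 and 5048 CPM, and the fit was not repeated with them. miR-346-5p stood at -1.82 as deposited and 1.82 exchanged back (limma adjusted p = 0.0269 either way), and miR-486a-5p, a red blood cell miRNA, was below the filter. The call counts with the 7 included were 20 (15.9%) higher and 20 (15.9%) lower of 126 as deposited, and 18 (14.3%) higher and 22 (17.5%) lower exchanged back.

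Outside the Dlk1-Dio3 cluster, 12 miRNAs were called lower at 16 weeks. The most abundant were miR-92a-3p, the cell cycle and angiogenesis-linked miRNA of the miR-17-92 cluster, and miR-193a-5p. miR-92a-3p had 6596, 9430.1, 7144 and 8813 CPM at 16 weeks, against 24367, 15379.6, 9151 and 14655 CPM in lean (log2 fold change -0.92, SE 0.30, limma adjusted p = 0.0437). It can come from 2 hairpins, and the reads do not tell them apart. miR-193a-5p had 5239.9, 7107, 6674 and 6719 CPM at 16 weeks, against 10983, 15609.6, 11240.2 and 12609.9 CPM in lean, with no overlap (-0.96, SE 0.23, limma adjusted p = 0.0149). Of 4 tested members of the miR-17-92 and paralogous clusters miR-92a-3p alone was called, and miR-17-3p averaged 676 ± 263 CPM at 16 weeks and 320.4 ± 106 CPM in lean (0.94, limma adjusted p = 0.111).

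The 3p arms of several other hairpins were also lower. miR-674-3p had 5559, 4100.0, 2481 and 4723 CPM at 16 weeks, against 13093, 9957, 10739 and 8316 CPM in lean (log2 fold change -1.35, SE 0.30, limma adjusted p = 0.00929). miR-191-3p had 1569, 1367, 1540.1 and 1704 CPM at 16 weeks, against 4728, 5159, 4764 and 3204 CPM in lean (-1.48, SE 0.28, limma adjusted p = 0.00425). miR-1843a-3p, encoded in an intron of Dcaf5, had 1702, 957, 1027 and 584 CPM at 16 weeks, against 8001, 9793, 3969.6 and 1704 CPM in lean (-2.21, SE 0.52, limma adjusted p = 0.014). In all 3 the groups did not overlap, although for miR-1843a-3p lean replicate 4 lay just above the highest 16-week library. miR-21a-3p, the minor arm of the fibrosis-linked miR-21, averaged 1547 ± 454 CPM at 16 weeks and 3476 ± 808 CPM in lean (-1.16, limma adjusted p = 0.0253), and miR-1964-3p averaged 293 ± 62.5 CPM at 16 weeks and 791 ± 289 CPM in lean (-1.25, limma adjusted p = 0.0419). The lowest of the called miRNAs, miR-6971-3p, averaged 29.5 ± 21.8 CPM at 16 weeks and 135 ± 8.5 CPM in lean (SD, n = 4 each, log2 fold change -1.26, limma adjusted p = 0.0419). It had 1, 0, 1 and 1 reads at 16 weeks, against 2, 4, 3 and 2 reads in lean, and passed the filter through the lean libraries alone. Its lean SD is smaller than the worth of 1 read in any lean library, so it does not measure the counting error.

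The other 4 miRNAs called lower end at, or next to, the start of an exon. A grouping by position, made after the values were seen, took the tested miRNAs whose mature 3′ end lies within 2 bases of the next exon of a gene on their strand, as in mirtrons, hairpins that splicing rather than Drosha releases. It held 10 of the 106 miRNAs with a position. Their sequences show the AG with which introns end, and 8 of the 10 end in AG, against 13 of all 106:
miR-6921-3p: uGACUACUccuugccucucag
miR-6978-3p: aCGGCUUCacucucacccugcag
miR-6988-3p: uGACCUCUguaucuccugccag
miR-3572-3p: uACACUUGuccuucuuuccccag
Of the 10, 4 were lower and 0 higher, beside 12.5% lower over all tested miRNAs, and 9 had a negative log2 fold change with a median of -1.49. Because the grouping followed the values, these counts are no independent test. For miR-6978-3p, miR-6988-3p and miR-3572-3p, all lean libraries reached the filter of 100 CPM, but not all 16-week libraries did. The share called lower thus rests in part on the filter. miR-6921-3p, in the gene of the lipogenic transcription factor Srebf1 (chr11:60200538-60200558, minus strand), had 372, 273, 428 and 389.5 CPM at 16 weeks, against 3346, 2169, 794 and 818 CPM in lean (-1.90, SE 0.48, limma adjusted p = 0.0175). miR-6978-3p, in the complement gene C3 (chr17:57217172-57217194, minus strand), had 106, 205, 85.6 and 48.7 CPM at 16 weeks, against 1091, 756, 501 and 136 CPM in lean (-1.87, limma adjusted p = 0.0419). The groups did not overlap in miR-6921-3p, and in miR-6978-3p lean replicate 4 lay inside the 16-week range. miR-6988-3p, in the gene of the ubiquitin ligase Syvn1, averaged 106 ± 118 CPM at 16 weeks and 484 ± 201 CPM in lean (-2.01, limma adjusted p = 0.034; edgeR adjusted p = 0.0526). miR-3572-3p, in Cnot3 of the deadenylase complex, averaged 167 ± 88.3 CPM at 16 weeks and 884 ± 830.3 CPM in lean (SD, n = 4 each; -1.86, limma adjusted p = 0.0419). In the annotation, the hairpin of miR-3572-3p overlaps an exon of Cnot3, and the hairpins of the other 3 lie in introns.

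**Figure D4:**
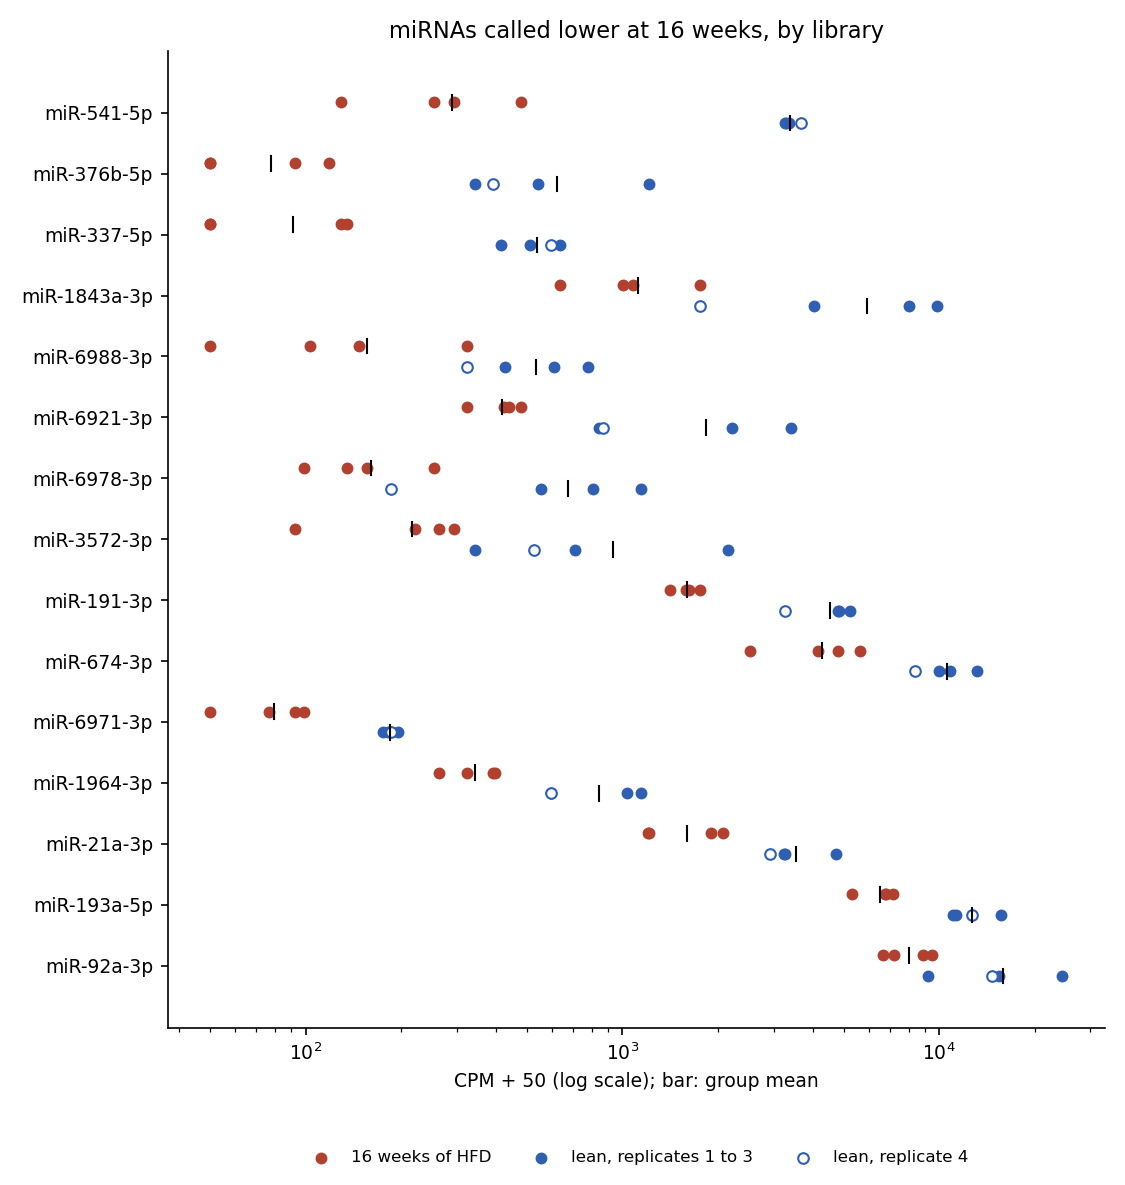
Level in each library (x axis, CPM + 50, log scale) of the 15 miRNAs called lower, with 16 weeks of HFD in red above lean in blue, lean replicate 4 as an open circle and each group mean as a bar. The 16-week points lie to the left of the lean ones, without overlap in 12 of the 15 rows, and lean replicate 4 is the lean library nearest to them in 6.

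Leaving out 1 library ended 9 of the 15 lower calls, while the 3 Dlk1-Dio3 members, miR-1843a-3p, miR-191-3p and miR-674-3p kept theirs without any of the 8. miR-193a-5p lost its call without lean replicate 2 (limma adjusted p = 0.0559), miR-6921-3p without 16-week or lean replicate 2 (0.0600 and 0.0567), and miR-21a-3p without 16-week replicate 2 or 3 or lean replicate 2 (0.0676, 0.0878 and 0.0712). miR-6988-3p lost its call without 16-week replicate 1, 3 or 4 or lean replicate 1 or 2 (0.0543 to 0.109). miR-92a-3p, miR-1964-3p and miR-3572-3p lost theirs without any 16-week library or lean replicate 1 or 2 (0.0643 to 0.123), miR-6978-3p without any library other than lean replicate 4 (0.0569 to 0.115), and miR-6971-3p without any of the 8 (0.0546 to 0.111).

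Both arms could be tested for 16 hairpins. The log2 fold changes of the arms had the same sign in 9 hairpins. In miR-322 both arms were called, and in 6 others 1 arm was. A call in 1 arm alone is no test of a difference between the arms. For miR-21a the level of the 5p arm was 7501, 6628, 9027 and 9446 CPM at 16 weeks, against 3055, 5554, 3468 and 9270.0 CPM in lean (log2 fold change 0.73, limma adjusted p = 0.14), while the 3p arm was called lower. Log2 ratios of the 5p over the 3p arm were taken with 50 CPM added to each arm. miR-146a-3p had only 3, 3, 3 and 1 reads at 16 weeks, against 3, 1, 1 and 5 reads in lean. The ratio for miR-146a thus rests in part on the added 50 CPM. The log2 ratio averaged 2.39 ± 0.43 at 16 weeks and 0.50 ± 0.80 in lean for miR-21a, and 7.87 ± 0.59 at 16 weeks and 4.40 ± 0.78 in lean for miR-146a (SD, n = 4 each). In both hairpins the ratio was higher in 4 of 4 16-week libraries than in any lean one (exact permutation test, 2-sided, p = 0.0286, the smallest that 70 assignments allow). Adjusted over the 16 hairpins neither passed (adjusted p = 0.229), and the ratios for miR-1843a (difference 1.91) and miR-674 (1.44) had an unadjusted exact p of 0.0571 each.

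**Figure D5:**
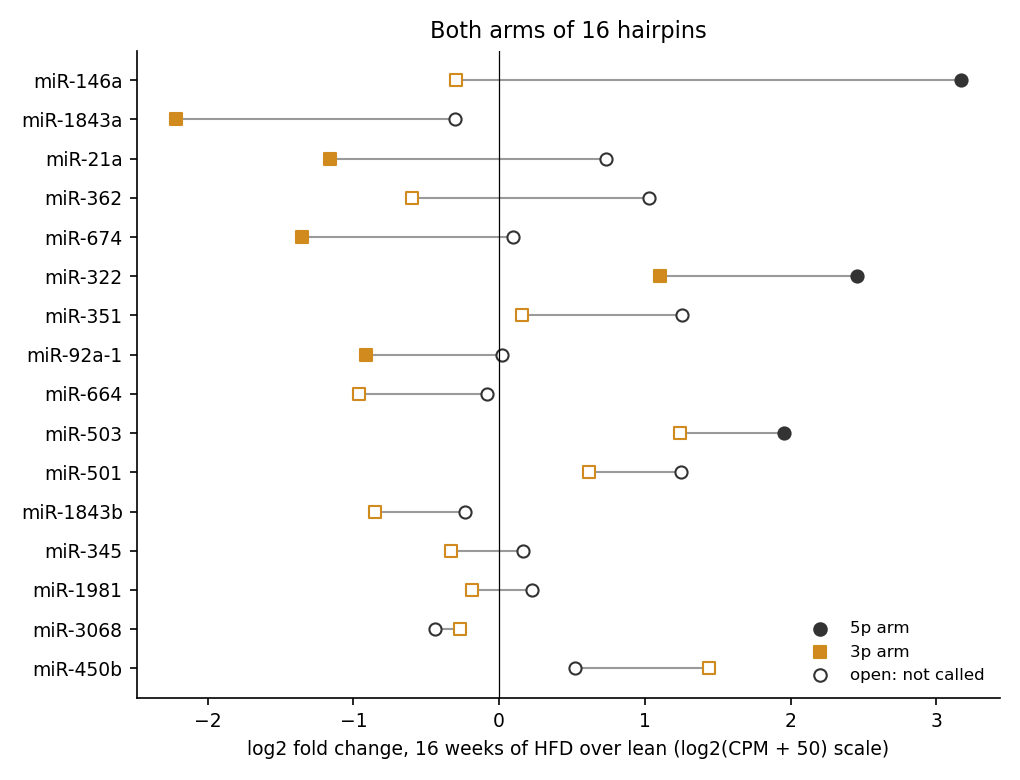
Log2 fold change of 16 weeks of HFD over lean (x axis, log2(CPM + 50) scale) for the 5p arm (circles) and the 3p arm (squares) of the 16 hairpins with both arms tested, filled where called, ordered by the difference between the arms. The arms of miR-146a lie farthest apart, at 3.17 and -0.30, and those of miR-322 are both called higher.

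The most abundant miRNAs were mostly not called. miR-101b-3p, which lies in an intron of Rcl1 (chr19:29135338-29135356, plus strand) and whose seed UACAGUA is known to target Ezh2, held 65.0%, 66.0%, 57.1% and 52.4% of all CPM at 16 weeks, against 61.1%, 62.7%, 70.6% and 54.7% in lean. The groups overlapped throughout (exact permutation test, 2-sided, p = 0.686). The 10 most abundant miRNAs together held 81.7% ± 1.63 at 16 weeks and 81.4% ± 1.53 in lean (SD, n = 4 each; exact permutation p = 0.771). Of these 10, miR-146a-5p and miR-511-3p were called higher and miR-92a-3p lower. miR-5121 averaged 28646 ± 15670.5 CPM at 16 weeks and 19582 ± 19846 CPM in lean and was not called (0.82, limma adjusted p = 0.307), but was called without lean replicate 4 (1.42, adjusted p = 0.0115). miR-5099, miR-151-3p, miR-1843a-5p and miR-3068-5p had log2 fold changes between -0.65 and -0.08 and were not called.

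In the lists that bear on metabolism, inflammation and other cell types, few further members passed, beside 10.8% higher and 12.5% lower over all tested miRNAs. Of 3 tested lipid and insulin metabolism miRNAs, miR-802-3p alone was called. miR-182-5p, linked to lipid metabolism through SREBP, had 159.6, 444, 1198 and 1704 CPM at 16 weeks, against 0, 197, 83.6 and 613 CPM in lean, and was not called by limma (1.92, adjusted p = 0.105). It was called by limma without lean replicate 4 (2.55, adjusted p = 0.0131) and, with that library, by DESeq2 (adjusted p = 0.0293). Of 5 inflammation-linked miRNAs tested, miR-146a-5p rose and miR-21a-3p fell. Of 5 tested miRNAs from introns of Clcn5, 4 had a positive log2 fold change and 0 were called. miR-501-5p had 1.25 and miR-501-3p 0.62 (limma adjusted p = 0.063 and 0.186). In the miR-30 family, 1 of 2 tested was called, miR-30b-3p.

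Few markers of other cell types had reads in the table. Of the stellate cell and fibroblast list, miR-125b-2-3p averaged 6385 ± 1402 CPM at 16 weeks and 4355 ± 1097 CPM in lean (SD, n = 4 each; log2 fold change 0.55, limma adjusted p = 0.156), and miR-99a-3p had 0.57 (limma adjusted p = 0.342), while miR-199a, miR-214, miR-143 and miR-145a were listed at 0. The endothelial list had 1 read of miR-126a-3p at 16 weeks and 0 in lean, the muscle list had 0 reads in all 8 libraries, and miR-451a of the red blood cell list had 0 reads at 16 weeks and 3 in lean. miR-219a-1-3p of the neural list and miR-203-5p of the epithelial list were tested and not called (-0.94 and -0.28; limma adjusted p = 0.11 and 0.673).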

How the data were processed

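The deposited table gives CPM per miRNA and library. Per the submitters' processing notes, cutadapt 1.13, edgeR 3.16.5 and the mm10 build were used; the aligner and miRNA annotation are not given in the sources used here. Every value outside the 7 exchanged-looking miRNAs was a whole multiple of its library's CPM step, which gave the reads and depth.

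The test was limma 3.58.1 (R 4.3.3; empirical Bayes with trend, 2-sided) on log2(CPM + 50) for miRNAs reaching 100 CPM in 4 or more of the 8 libraries, without the 7. A miRNA can pass this filter through the libraries of either group alone. Fold changes are on the log2(CPM + 50) scale and understate those of low miRNAs. A call is an adjusted p (Benjamini-Hochberg, over all miRNAs tested) under 0.05. Shares and arm ratios used exact permutation tests over 70 assignments. Recovered reads were tested with edgeR 4.0.16 (quasi-likelihood, TMM) and DESeq2 1.42.0. The reads of lean replicate 4 could be recovered only with its step taken from values outside the 7, since its smallest deposited value is an exchanged one, and an automatic check of whole reads did not pass that column, so the count tests rest on that choice. The fit was tested on simulated data. Alternatives changed the pseudocount, filter, scaling, tool, libraries in the fit and treatment of the 7, added the replicate number as a block and left out each library; edgeR without lean replicate 4 and other pseudocounts for the arm ratios were added after seeing the data.

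Host genes are from GENCODE vM21 on the same strand, and positions and sequences from RefSeq GRCm38.p6; 1674 of 1965 names had a sequence. The miRNAs named are up to 15 per direction with the largest change among those called, up to 4 tested by level and up to 4 called per list, the 10 most abundant, the 7, those at 0 in 1 group and present throughout the other, and other arms of these; counts of lists cite further members. The groups, lists and rules were chosen with earlier results of these data known, and miRNAs of the intron-end grouping, miR-434-5p, markers and common miRNAs listed at 0, and those that limma called when lean replicate 4 was left out, were named after their values were seen.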

Additional observations from a re-analysis of the deposited data

Results flagged for a closer look

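Of 118 checks of a group of 4 libraries for 1 value standing far from the others, 7 stood out, where chance gives about 1 in 20. Lean replicate 4 was far above the other lean libraries for miR-351-5p (28696 CPM, others 5766 to 8947), miR-5121 (49076 CPM, others 7347 to 13506), miR-322-3p (5726 CPM, others 2089 to 2619) and miR-503-5p (818 CPM, others 263 to 292). At 16 weeks, replicate 1 was far above the others for miR-215-5p (1835 CPM, others 243 to 444) and replicate 2 for miR-30d-5p (342 CPM, others 146 to 171). In lean, replicate 2 had more miRNAs detected than the others (296, others 230 to 234), and it is the deepest lean library.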

How the results depend on the processing

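Against 13 miRNAs higher and 15 lower, a pseudocount of 1 gave 5 and 8, a pseudocount of 10 gave 6 and 9, and all 12 libraries in the fit gave 5 and 5. CPM without miR-101b-3p gave 23 lower, CPM without the 5 most abundant miRNAs 25 lower, and the 7 miRNAs as deposited 20 higher. Leaving out each library in turn gave 5 to 20 higher and 6 to 21 lower. Same-numbered libraries had correlations of 0.07, 0.28, -0.13 and 0.34 in their deviations. The lean library of equal number was the best partner of 16-week replicates 2 and 4, but not of 1 and 3. These values do not settle whether the numbers pair the libraries, and the replicate block gave 20 higher and 16 lower. Of the 28 called miRNAs, edgeR kept 24 and DESeq2 26, and none changed sign in any setting run. The cause of these shifts was not tested. Uncalled log2 fold changes near 0 changed sign. The log2 fold change of miR-101b-3p was 0.040 with edgeR, 0.080 with DESeq2 and -0.095 to 0.029 on leaving out each library, and the log2 fold change of miR-146a-3p was 0.27 with edgeR without lean replicate 4 and -0.64 to 0.11 on leaving out libraries. The log2 fold change of miR-151-3p was 0.041 with DESeq2, 0.050 with edgeR without lean replicate 4 and -0.20 to 0.017, and the log2 fold change of miR-3075-5p was 0.26 with edgeR, 0.19 without TMM, 0.35 with DESeq2, 0.24 with edgeR without lean replicate 4 and -0.34 to 0.39. The log2 fold change of miR-674-5p was -0.080 without the 5 most abundant and -0.17 to 0.30, and the log2 fold change of miR-92a-1-5p was -0.019 and -0.0085 with pseudocounts of 1 and 10, -0.029 without miR-101b-3p, -0.099 without the 5 most abundant, -0.17 with quantile normalization and -0.53 to 0.57. The group difference in the log2 ratio of miR-351-5p over miR-351-3p was -0.0067 with a pseudocount of 1. On leaving out each library, the 16-week minus lean difference in the share of the CPM held by miR-101b-3p ranged over -4.67 to 0.626 percentage points, and that in the share of the CPM held by the 10 most abundant miRNAs over -0.171 to 1.05. Many miRNAs had only a few reads per library, which limits the precision of their fold changes.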
